A study of Homo sapiens with 14 samples.

Results

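Aminoacyl-tRNA synthetases are the enzymes that join each amino acid to its transfer RNA, and their mRNAs were followed here as 36 genes, 20 of them cytosolic and 16 mitochondrial. Members were chosen by symbol and by role: symbols that end in 2 encode the mitochondrial enzymes and the others the cytosolic ones, while GARS and KARS each encode the enzyme of both compartments. All 36 were found among the 26171 entries of the K562 table and all 36 among the 19196 genes of the SIGM5 table.

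Human cells keep separate protein synthesis machineries in the cytosol and in the mitochondrial matrix, and most amino acids have 1 nuclear gene for the synthetase of each. In the cytosol several synthetases sit together with scaffold proteins in the multisynthetase complex. When amino acids or charged tRNAs run short, the kinase GCN2 phosphorylates the initiation factor eIF2, translation of the transcription factor ATF4 rises, and ATF4 with its C/EBP partners induces genes of amino acid synthesis and uptake together with many cytosolic synthetases. In erythroid and myeloid leukaemia lines, which divide fast, these enzymes serve a high rate of protein synthesis.

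The series asked how inhibition of TET dioxygenases, the enzymes that oxidise 5-methylcytosine in DNA, changes mRNA in leukaemia lines. Poly(A) RNA was sequenced in 14 libraries, in 7 groups of 2. The acute myeloid leukaemia line SIGM5 received 12.5 µM TETi76, described in the series as a TET inhibitor, or its vehicle DMSO. K562, an erythroleukaemia line, was used as K01, which is TET2+/+, and as K18, which is TET2-/-. K01 received TETi76 (12.5 µM) with ascorbate (100 µM), TETi76 alone, ascorbate alone, or DMSO, and K18 received DMSO. Ascorbate is a reductant that keeps the iron of TET enzymes active. All treatments lasted 24 h. The labels number the replicates and do not say that they were separate cultures, so the p-values measure the spread between these libraries, which may be technical. Each genotype was represented by 1 K562 clone, so TET2 genotype and clone cannot be told apart.

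SIGM5 values were read counts, with library totals from 18893636 to 23639198. K562 values were FPKM (fragments scaled by transcript length and by library depth), whose smallest steps in 19 single-transcript genes put the depth at roughly 4860000 to 9240000 reads a library, lowest in replicate 1 of TETi76 with ascorbate. Replicates correlated at r = 0.975 to 0.993 on the log2 scale. The globin and red-cell genes of a 10-gene erythroid list were all detected in K562, with summed FPKM of 8374 and 9648 in K01 DMSO. SIGM5 had all 10 genes of a myelomonocytic list, with summed CPM (counts scaled to library size) of 22280 and 22372 under DMSO, while HBG1, HBG2, HBE1 and HBZ had 0 counts in every SIGM5 library.

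In the promoters of the cytosolic genes one short motif recurred, and it is shown here as a description, chosen with the TETi76 changes known. Each cytosolic gene that carried it was lower under TETi76 in K01, where 16 of all 20 cytosolic members were lower. The motif TGATGNAA is the composite element bound by C/EBP and ATF family pairs. RefSeq promoter windows of 300 bases, running from 250 bases before the start to 50 after it on GRCh38.p14, were found for 30 members, 9 of them with 2 starts. No window was used for DARS, LARS, VARS, YARS, AARS2 and VARS2. Read on both strands, TGATGNAA occurred in 7 of the 16 cytosolic genes with a window and in 1 of the 14 mitochondrial ones. Among all 27305 genes with a window, 4.46% carried it. The 30-base stretches below run 5′ to 3′ on the gene's strand, with the motif, or its reverse complement, in capitals.
AARS, chr16:70289675-70289704, minus strand: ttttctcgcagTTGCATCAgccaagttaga
CARS, chr11:3057407-3057436, minus strand: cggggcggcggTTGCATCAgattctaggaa
GARS, chr7:30594834-30594863, plus strand: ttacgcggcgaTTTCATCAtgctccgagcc
IARS, chr9:92293692-92293721, minus strand: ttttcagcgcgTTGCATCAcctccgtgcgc
MARS, chr12:57488053-57488082, plus strand: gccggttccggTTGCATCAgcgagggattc
NARS, chr18:57621804-57621833, minus strand: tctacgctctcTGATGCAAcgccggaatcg
TARS, chr5:33440956-33440985, plus strand: gcgcctttcgaTTGCATCAgctggtccagc
YARS2, chr12:32756076-32756105, minus strand: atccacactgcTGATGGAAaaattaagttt

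WARS is shown for a second motif. The core of the interferon-stimulated response element, which is TTTC, any 2 bases and TTTC again, occurred on either strand in WARS and in EARS2 among the members and in 4.38% of all genes. WARS encodes the tryptophanyl enzyme, which interferon-gamma induces.
WARS, chr14:100375383-100375412, minus strand: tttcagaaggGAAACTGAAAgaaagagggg
EARS2, chr16:23557554-23557583, minus strand: cctgccacgcTTTCGCTTTCccaagctgaa

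A further pair of motifs was searched on both strands. The palindromic core of the NRF1 site, which is common at nuclear genes for mitochondrial proteins, occurred in MARS2 alone among the 30 members and in 1.52% of all genes. The E-box CACGTG, bound by MYC and its relatives, occurred in IARS, CARS2, EARS2 and MARS2 and in 8.77% of all genes. A match in these windows is a description of letters, and no binding was measured.

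Cytosolic synthetases were the more abundant class. In K01 under DMSO the highest level was that of SARS, the seryl enzyme, with 263 and 257 FPKM, followed by the glycyl enzyme GARS (218 and 222) and the alanyl enzyme AARS (210.3 and 199.5). AARS overlapped TARS, the threonyl enzyme, which had 201 and 199 FPKM, and the tryptophanyl enzyme WARS came next with 198 and 195. KARS, MARS and YARS, which charge lysine, methionine and tyrosine, followed between 151 and 164 FPKM. KARS overlapped MARS and MARS overlapped YARS, while the lower KARS value (157.65) lay just above the higher YARS value (157.58). The lowest cytosolic member was HARS, the histidyl enzyme, with 36.6 and 40.4 FPKM. Of the mitochondrial members, IARS2, the isoleucyl enzyme, had 78.9 and 81.2 FPKM, ranked 16th of 36 and stood above LARS, DARS, RARS, FARSB and HARS. The other 15 mitochondrial members ranked below HARS, from TARS2 (30.003 and 33.8 FPKM) down to MARS2 (5.18 and 6.10), and most neighbours among them from SARS2 down overlapped.

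TETi76 lowered most cytosolic synthetase mRNAs in K01 and few mitochondrial ones. Of 20 cytosolic members, 16 fell, 0 rose and 4 did not pass the test, with a median log2 change of -0.74 for the 20 against -0.01 for all 12541 genes tested. The share of all genes called lower was 13.7%. Of 16 mitochondrial members, 2 fell, TARS2 and IARS2, and 1 rose, RARS2, with a median log2 change of -0.13, while 9.6% of all genes were called higher. The mitochondrial median was -0.22 without replicate 2 of K01 DMSO, and lay between -0.19 and -0.09 without any other of the 4 libraries. The 2922 calls over all genes became 1669 to 1793 when any 1 of the 4 libraries was left out. The summed level of the 20 cytosolic mRNAs was 1509 and 1494 FPKM under TETi76, against 2658 and 2635 FPKM under DMSO. The summed level of the 16 mitochondrial mRNAs was 245 and 249 FPKM under TETi76, against 292 and 295 FPKM under DMSO. Calls were made with limma on log2(FPKM + 1) with Benjamini-Hochberg adjustment at 0.05, and log2 changes are on that scale. These are bulk samples, in which fewer cells of a kind and less RNA per cell cannot be told apart.

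**Figure D1:**
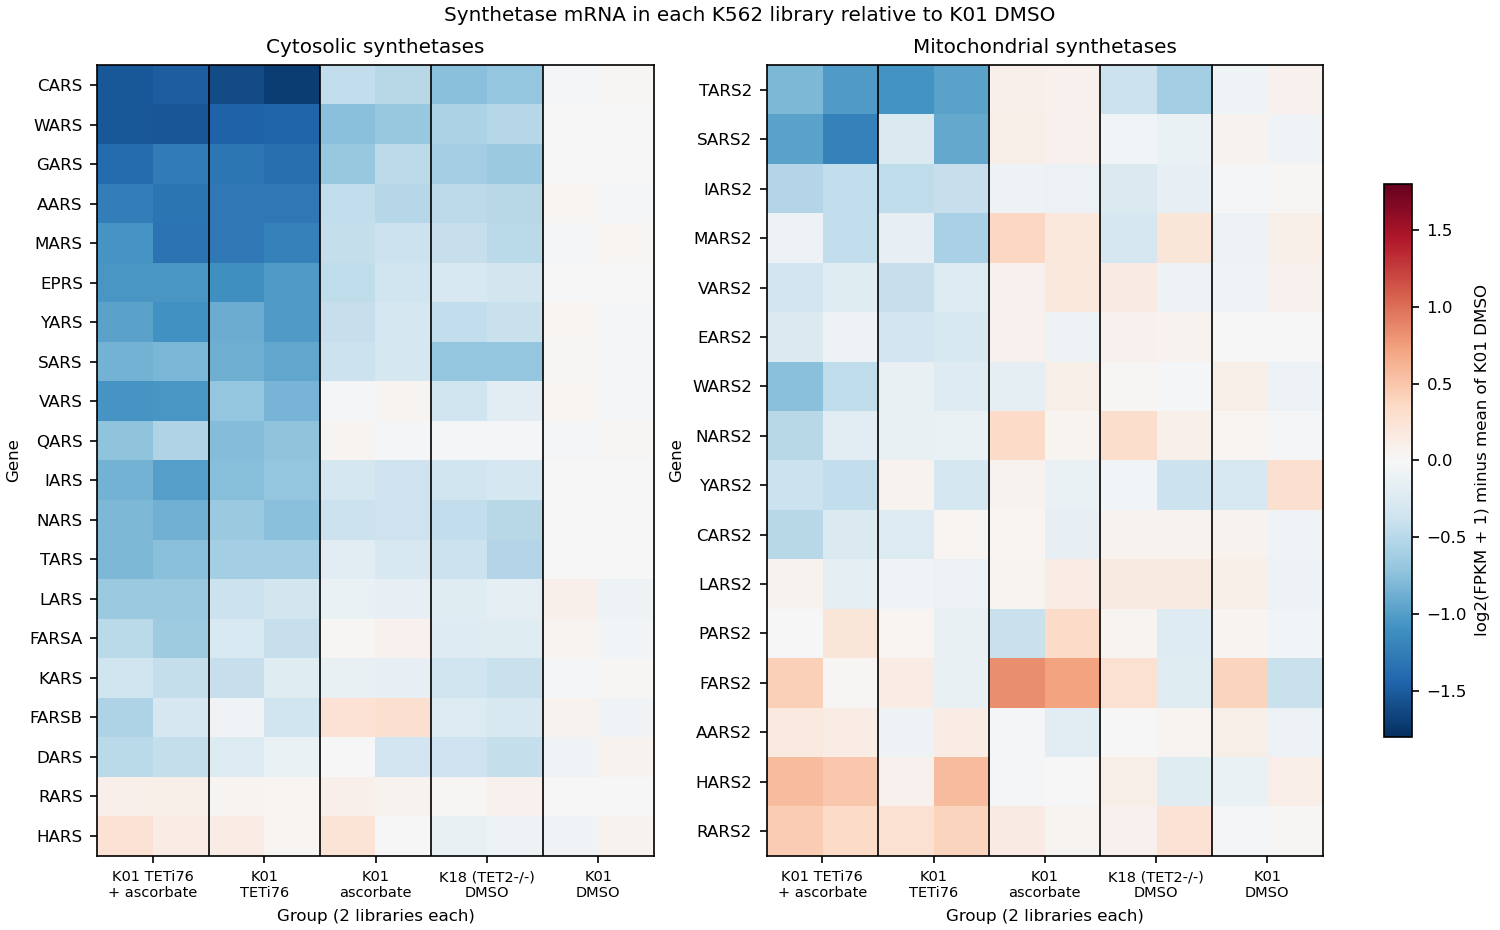
Each K562 library (columns, 2 per group) is shown for each member (rows, ordered by the TETi76 change in K01) as log2(FPKM + 1) minus the mean of the K01 DMSO libraries, with blue lower and red higher. The upper cytosolic rows are blue in all 4 libraries with TETi76 and paler blue under ascorbate alone and in K18, while most mitochondrial rows are paler under TETi76 alone, TARS2 (-1.02) and SARS2 (-0.59) being the bluest of them, and FARS2 is red under ascorbate (0.78). That FARS2 change did not pass the test, and the K01 DMSO libraries of FARS2 differed from each other (10.8 and 5.75 FPKM).

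CARS, the cysteinyl enzyme, had 27.8 and 25.7 FPKM under TETi76, against 85.0 and 87.9 FPKM under DMSO. Its log2 change of -1.66 (SE 0.07, limma adjusted p = 1.16e-06) was the largest among the members. WARS had 70.6 and 71.7 FPKM under TETi76, against 198 and 195 FPKM under DMSO (log2 change -1.45, SE 0.06, limma adjusted p = 6.45e-07). In both genes the 2 TETi76 libraries lay far below the 2 DMSO libraries. GARS, which charges glycine in both compartments, had 88.3 and 85.6 FPKM under TETi76, against 218 and 222 FPKM under DMSO (log2 change -1.33, SE 0.08, limma adjusted p = 6.34e-06). AARS had 83.6 and 83.0 FPKM under TETi76, against 210.3 and 199.5 FPKM under DMSO (log2 change -1.29, SE 0.06, limma adjusted p = 1.28e-06). For GARS and AARS too, no TETi76 library came near a DMSO library.

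MARS, whose product also charges the initiator tRNA, had 63.6 and 66.7 FPKM under TETi76, against 153 and 161 FPKM under DMSO. EPRS, 1 protein that charges both glutamate and proline, had 60.45 and 63.9 FPKM under TETi76, against 131.4 and 129.7 FPKM under DMSO. YARS had 82.4 and 75.2 FPKM under TETi76, against 158 and 151 FPKM under DMSO. The groups did not overlap in any of these 3 genes, and the log2 changes were -1.25 for MARS, -1.06 for EPRS and -0.96 for YARS. SARS, whose product also charges the tRNA that becomes selenocysteinyl-tRNA, had 142 and 136 FPKM under TETi76, against 263 and 257 FPKM under DMSO (log2 change -0.90, SE 0.05, limma adjusted p = 5.99e-06). By the group mean it was the most abundant member in K01 under TETi76, though KARS was above it in replicate 2.

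The other cytosolic members that fell did so by less. VARS, QARS, IARS, NARS and TARS, which charge valine, glutamine, isoleucine, asparagine and threonine, had log2 changes of -0.77, -0.75, -0.73, -0.71 and -0.61. LARS, the leucyl enzyme, and FARSA, the alpha subunit of the phenylalanyl enzyme, had log2 changes of -0.36 and -0.35. KARS, which serves both compartments, had 121 and 138 FPKM under TETi76, against 158 and 164 FPKM under DMSO (log2 change -0.31, SE 0.07, limma adjusted p = 0.0122). The KARS groups did not overlap, but its call, like those of LARS and FARSA, was lost when single libraries were left out. For LARS the limma adjusted p was 0.0725 without replicate 1 of K01 DMSO and 0.0571 without replicate 1 of TETi76. For FARSA it was 0.073 without replicate 1 of K01 DMSO and 0.0754 without replicate 2 of TETi76, and for KARS 0.074 without replicate 2 of K01 DMSO and 0.0794 without replicate 1 of TETi76.

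FARSB, DARS, RARS and HARS did not pass the test. FARSB, the beta subunit of the phenylalanyl enzyme, had 42.4 and 34.2 FPKM under TETi76, against 46.0 and 42.4 FPKM under DMSO (log2 change -0.21, 95% interval -0.47 to 0.05). DARS, the aspartyl enzyme, had 48.9 and 53.9 FPKM under TETi76, against 55.6 and 61.4 FPKM under DMSO (log2 change -0.18, 95% interval -0.44 to 0.07). RARS, the arginyl enzyme, had 58.0 and 57.7 FPKM under TETi76, against 56.6 and 55.9 FPKM under DMSO (log2 change 0.04, 95% interval -0.10 to 0.18). These intervals leave room for small changes, and for FARSB and DARS they hold decreases of the size of LARS, FARSA and KARS. For FARSB, DARS, RARS and HARS they hold no decrease of the size seen in the 13 most changed members. HARS had a log2 change of 0.08 (95% interval -0.14 to 0.31).

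Cytosolic genes that fell were found both inside and outside the multisynthetase complex. Of its 8 enzymes (EPRS, IARS, LARS, MARS, QARS, KARS, RARS and DARS), 6 fell, with a median log2 change of -0.55. Of the other 12 cytosolic members 10 fell, with a median of -0.84. Of the scaffold proteins of the complex, EEF1E1 fell (log2 change -0.61), while AIMP1 and AIMP2 had log2 changes of 0.32 and -0.16 and did not pass.

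Among mitochondrial members, TARS2, the threonyl enzyme of mitochondria, had 14.6 and 15.8 FPKM under TETi76, against 30.003 and 33.8 FPKM under DMSO (log2 change -1.02, SE 0.12, limma adjusted p = 0.000332). IARS2 had 58.0 and 60.0 FPKM under TETi76, against 78.9 and 81.2 FPKM under DMSO (log2 change -0.43, SE 0.07, limma adjusted p = 0.00208). Neither gene overlapped between the groups. SARS2, the seryl enzyme, had 15.1 and 9.27 FPKM under TETi76, against 19.3 and 17.5 FPKM under DMSO. Its 2 TETi76 libraries differed from each other, and its log2 change of -0.59 had a limma adjusted p of 0.0508. MARS2, the methionyl enzyme, had 4.99 and 3.40 FPKM under TETi76, against 5.18 and 6.10 FPKM under DMSO (log2 change -0.37, limma adjusted p = 0.281).

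RARS2, the arginyl enzyme of mitochondria, had 30.4 and 33.3 FPKM under TETi76, against 24.5 and 25.3 FPKM under DMSO (log2 change 0.34, SE 0.10, limma adjusted p = 0.0327). Its groups did not overlap, but the call was lost when any 1 of the 4 libraries was left out, with limma adjusted p values from 0.0569 to 0.161. The other 11 mitochondrial members had log2 changes between -0.33 (VARS2) and 0.32 (HARS2). Their SEs ran from 0.11 (LARS2) to 0.27 (FARS2), against 0.05 to 0.12 among the cytosolic members, so changes of the size of KARS could be missed among them.

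**Figure D2:**
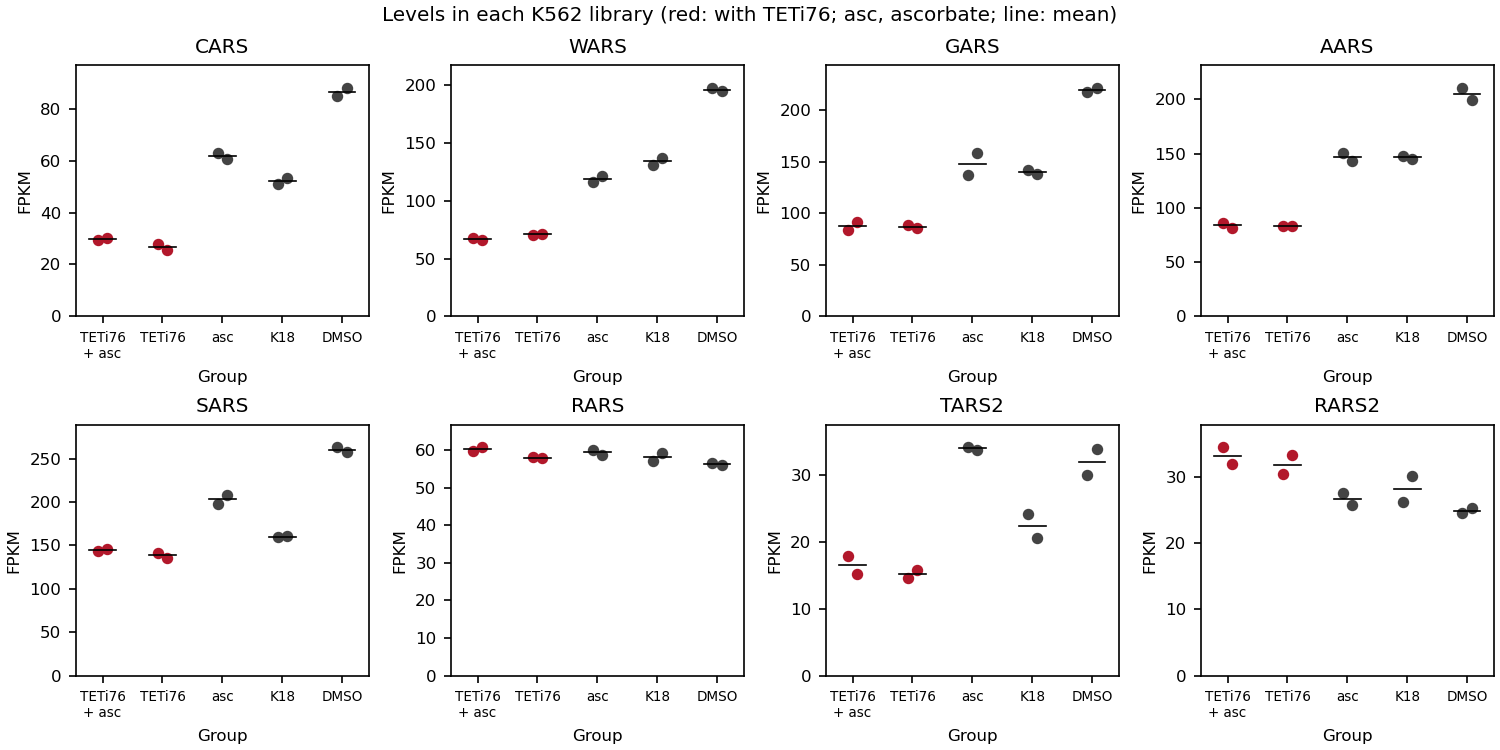
FPKM of 8 members in each K562 library, with groups in columns, the 2 libraries of a group as points and their mean as a line; groups with TETi76 are red. CARS, WARS, GARS, AARS and SARS are lowest in both TETi76 groups and highest in K01 DMSO, RARS lies between 55.9 and 60.7 FPKM throughout, TARS2 is lowest in the TETi76 groups, and RARS2 is highest with TETi76.

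Each cytosolic gene was also set against the mitochondrial gene for the same amino acid, which gave 17 pairs because EPRS, FARSA and FARSB enter with EARS2, PARS2 and FARS2. The ratio of FPKM, cytosolic over mitochondrial, was lower under TETi76 in 16 of 17 pairs, with a median log2 difference of -0.42. For CARS over CARS2 it was 3.36 and 2.51 under TETi76, against 8.17 and 9.24 under DMSO. For AARS over AARS2 it was 6.83 and 5.68 under TETi76, against 14.8 and 16.4 under DMSO. For WARS over WARS2 it was 9.48 and 10.5 under TETi76, against 22.1 and 25.5 under DMSO. In these 3 pairs the groups were far apart, and the cytosolic partner moved. Threonine was the exception, with a log2 ratio of TARS over TARS2 that was 0.45 higher under TETi76 with TARS2 the partner that fell more. No test was made on the ratios, since an exact permutation test of 2 against 2 libraries cannot go below p = 0.333. No share over other gene pairs was counted.

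**Figure D3:**
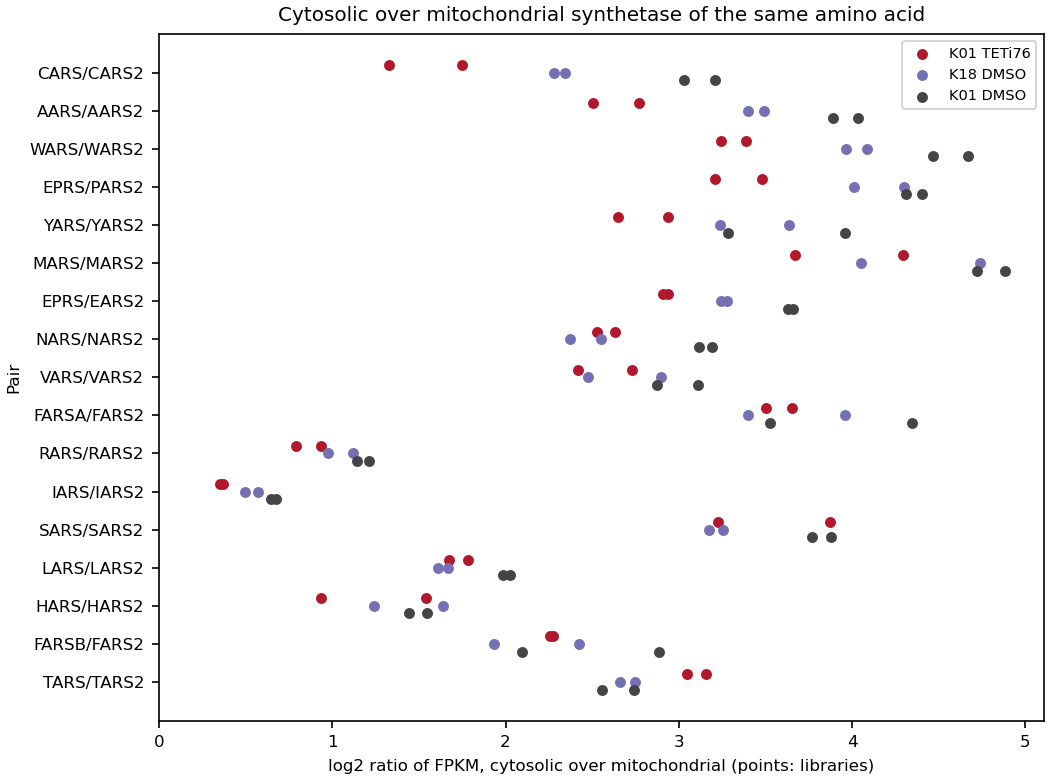
The log2 ratio of FPKM, cytosolic over mitochondrial synthetase of the same amino acid, in each library of K01 under TETi76, K18 under DMSO and K01 under DMSO (points; 17 pairs, ordered by the TETi76 difference). Both points under TETi76 lie left of both K01 DMSO points in 12 pairs and right of them in 1, TARS/TARS2. In SIGM5, which is not drawn, both TETi76 ratios were below both DMSO ratios in 2 of 16 pairs and above them in 5. Pairs that share EPRS or FARS2 are not independent, and no share over other gene pairs was counted.

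Many, but not all, genes on the lists around the synthetases fell, where 13.7% of all genes were called lower. The list called ATF4 targets here and below also holds ATF4 itself. Of 15 tested members of an ATF4 target list, 13 fell under TETi76 in K01, among them CHAC1, which degrades glutathione (log2 change -3.83), INHBE, an activin subunit (-3.34), and DDIT4, an inhibitor of mTORC1 signalling (-3.21). Of 16 amino acid synthesis genes 14 fell, among them PSAT1 of the serine pathway (-2.89), CTH, which makes cysteine (-2.40), and MTHFD2 of mitochondrial folate metabolism (-1.97). Of 11 amino acid transporter genes 9 fell and 1 rose: SLC6A9, which carries glycine (-2.06), SLC1A4 (-1.91) and SLC7A1 (-1.69) fell most, and SLC3A2, the shared heavy chain of several transporters, rose (0.31). ATF4 mRNA, already counted among the 13, had a log2 change of -1.21. Of the 6 genes for eIF2 kinases and their regulators, IMPACT, an inhibitor of GCN2, fell (-1.20) and the other 5 did not pass.

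Translation factors moved less, where 13.7% of all genes were called lower and 9.6% higher. Of 13 cytosolic initiation and elongation factor genes 5 fell, among them EIF2S2, the beta subunit of eIF2 (-0.67), EIF2B5 (-0.47) and EIF2S3 (-0.46). Of 9 mitochondrial ones 4 fell, with TUFM, the elongation factor (-0.62), MTIF2 (-0.55) and GFM1 (-0.51) the most, and 1 rose, MTIF3 (0.43). Of 9 other genes of aminoacylation, DTD1, which removes D-amino acids from tRNA (-0.69), and SEPSECS, which makes selenocysteinyl-tRNA (-0.64), fell, and GATC, a subunit of the mitochondrial amidotransferase, rose (0.24). Interferon-response genes did not fall with WARS: of 6 tested, GBP2 (1.40) and ISG15 (0.73) rose and 0 fell.

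The 7 cytosolic genes with TGATGNAA in their window (AARS, CARS, GARS, IARS, MARS, NARS and TARS) were all among the 16 that fell, with a median log2 change of -1.25. The 9 cytosolic genes with a window and no match had a median of -0.35, though WARS, EPRS, SARS, QARS, FARSA and KARS among them also fell. How many of all genes with the motif were called lower was not counted. YARS2, the mitochondrial gene with a match, had a log2 change of -0.13 and did not pass. The motif and the genes were chosen with these changes known, so the counts are a description.

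Marker genes were also compared for TETi76 against DMSO in K01, where 13.7% of all genes were called lower and 9.6% higher. Of the 10 erythroid genes, 6 fell, KLF1 most (log2 change -1.22). Their summed level was 7925 and 8278 FPKM under TETi76, against 8374 and 9648 FPKM under DMSO. Of 7 tested myelomonocytic markers 1 rose, SPI1 (1.49), and the summed level of that list was 74.97 and 66.1 FPKM under TETi76, against 54.2 and 46.9 FPKM under DMSO. Of the lymphoid, stromal and epithelial list 0 of 3 tested genes passed in limma (0 at an unadjusted p under 0.05), and MS4A1 was listed at 0 in every K562 library. Their part in the synthetase changes was not tested.

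Ascorbate alone was compared with DMSO in K01, using the same DMSO libraries. It lowered 7 cytosolic synthetases and 0 mitochondrial ones in the fit of all 10 K562 libraries, where 0.311% of all genes were called lower. The 7 were WARS (log2 change -0.72), GARS (-0.57), AARS (-0.48), CARS (-0.48), EPRS (-0.41), NARS (-0.37) and SARS (-0.35). The median log2 change was -0.29 for the 20 cytosolic members and 0.04 for the 16 mitochondrial ones, against 0.00 for all genes (-0.000409). At an unadjusted p under 0.05 limma gave 12 cytosolic and 1 mitochondrial members. The share of all genes at that unadjusted cut is not given, so these counts cannot be set against a general rate. DESeq2 was not run on FPKM.

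WARS had 117 and 122 FPKM under ascorbate, against 198 and 195 FPKM under DMSO. GARS had 137 and 159 FPKM under ascorbate, against 218 and 222 FPKM under DMSO. CARS had 63.1 and 60.7 FPKM under ascorbate, against 85.0 and 87.9 FPKM under DMSO. The groups did not overlap in these 3 genes, and all levels under ascorbate lay above those under TETi76. The summed cytosolic level was 2152 and 2165.8 FPKM under ascorbate, against 2658 and 2635 FPKM under DMSO, while the mitochondrial sum was 306 and 300.04 FPKM under ascorbate, against 292 and 295 FPKM under DMSO. These calls depended on the pooled spread. With only the 4 libraries compared in the fit 0 cytosolic members were called, and without any 1 of those 4 libraries 0 or 1 was (0 without replicate 1 of DMSO, 1 without each of the other 3).

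In the same comparison 0.311% of all genes were called lower. Of the amino acid synthesis genes 5 of 16 fell, CTH (-1.03), PSAT1 (-0.98) and PSPH (-0.97) most. Of the ATF4 targets 2 of 15 fell, TRIB3 (-0.88) and SESN2 (-0.70), and of the transporters 2 of 11, SLC7A5 (-0.59) and SLC3A2 (-0.40). In limma 0 of the scaffold, other aminoacylation, translation factor, eIF2 kinase and marker genes passed, though some had an unadjusted p under 0.05, for instance 5 of 13 cytosolic translation factors and 3 of 10 erythroid markers.

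TETi76 was also tested on an ascorbate background, by comparing TETi76 with ascorbate to ascorbate alone, a pair of groups that shares no library with the TETi76 and DMSO pair. Of the 20 cytosolic members 17 fell and 0 rose, with a median log2 change of -0.63, where 17.8% of all genes were called lower. Of the 16 mitochondrial members 6 fell and 2 rose, with a median of -0.39, where 12.8% of all genes were called higher. The median of all genes was -0.01. CARS and VARS fell most among the cytosolic genes.

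CARS had 29.4 and 30.2 FPKM under TETi76 with ascorbate, against 63.1 and 60.7 FPKM under ascorbate (log2 change -1.03, SE 0.07, limma adjusted p = 1.4e-05). VARS had 67.3 and 67.6 FPKM under TETi76 with ascorbate, against 139 and 147 FPKM under ascorbate (log2 change -1.07, SE 0.07, limma adjusted p = 1.33e-05). Neither gene overlapped. WARS, AARS, MARS and GARS had log2 changes of -0.82, -0.80, -0.78 and -0.74, and FARSB, which had not passed without ascorbate, had -0.71 (SE 0.12, limma adjusted p = 0.00188). DARS (-0.28), HARS (0.07) and RARS (0.02) did not pass.

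Among mitochondrial members SARS2 had 8.94 and 7.30 FPKM under TETi76 with ascorbate, against 19.8 and 19.4 FPKM under ascorbate (log2 change -1.18, SE 0.19, limma adjusted p = 0.00159). TARS2 had 17.8 and 15.2 FPKM under TETi76 with ascorbate, against 34.1 and 33.8 FPKM under ascorbate (log2 change -1.0003, SE 0.12, limma adjusted p = 0.000251). WARS2 (-0.57), NARS2 (-0.54), VARS2 (-0.41) and IARS2 (-0.38) also fell, and HARS2 (0.54) and RARS2 (0.31) rose. Without replicate 1 of TETi76 with ascorbate, the shallowest library, 3 mitochondrial members were called, without either ascorbate library 4, and without replicate 2 of TETi76 with ascorbate 5. With only these groups in the fit 4 were called.

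In that comparison 17.8% of all genes were called lower and 12.8% higher. Of the ATF4 targets 9 of 15 fell and 3 rose. CHAC1 (-3.01), INHBE (-2.71) and DDIT4 (-2.57) fell most, while PPP1R15A (0.87), ATF3 (0.57) and DDIT3 (0.39) rose. Of the amino acid synthesis genes 13 of 16 fell, CBS (-1.796), PSAT1 (-1.64) and ASL (-1.44) most, and of the transporters 8 of 11 fell and 1 rose, SLC3A2 (1.19). Mitochondrial translation factors showed 2 of 9 lower, TUFM (-0.93) and GFM1 (-0.70). Of the erythroid markers 7 of 10 fell, with a summed level of 6780 and 7017 FPKM under TETi76 with ascorbate, against 9719 and 10136 FPKM under ascorbate. Of 7 tested myelomonocytic markers 2 rose, SPI1 (1.47) and ITGAM (0.83), with summed levels of 67.7 and 59.6 FPKM under TETi76 with ascorbate, against 46.6 and 52.2 FPKM under ascorbate, and of 6 interferon-response genes 2 rose, GBP2 (1.41) and IRF1 (0.58). Their part in the synthetase changes was not tested.

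Adding ascorbate to TETi76 gave no synthetase call. Against TETi76 alone, limma called 0 of 20 cytosolic members (6 at an unadjusted p under 0.05) and 0 of 16 mitochondrial ones (2). After adjustment 0.734% of all genes were called in either direction, and the share at the unadjusted cut is not given. The summed cytosolic level was 1437 and 1416 FPKM under TETi76 with ascorbate, against 1509 and 1494 FPKM under TETi76. The mitochondrial sum was 246 and 242 FPKM under TETi76 with ascorbate, against 245 and 249 FPKM under TETi76. Log2 changes of cytosolic members ran from -0.31 to 0.15.

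The interaction asks whether the TETi76 change on the ascorbate background differed from that without ascorbate. It was positive, meaning a smaller decrease with ascorbate present, for WARS (0.63, SE 0.08), CARS (0.63, SE 0.10), AARS (0.49, SE 0.08) and SARS (0.42, SE 0.07), with limma adjusted p values of 0.0144, 0.0385, 0.0448 and 0.0477. Of all genes, 0.279% were called higher. Each of these 4 genes had already fallen with ascorbate alone, and each reached a like level in both TETi76 groups: WARS had 67.7 and 66.6 FPKM under TETi76 with ascorbate, against 70.6 and 71.7 FPKM under TETi76. Of the mitochondrial members 0 were called in limma (0 at an unadjusted p under 0.05). The 4 calls were near the threshold, and WARS alone or no gene passed when any 1 of the 8 libraries was left out (0 without replicate 1 or 2 of DMSO, of ascorbate, or without replicate 1 of TETi76, and 1 without each of the other 3).

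**Figure D4:**
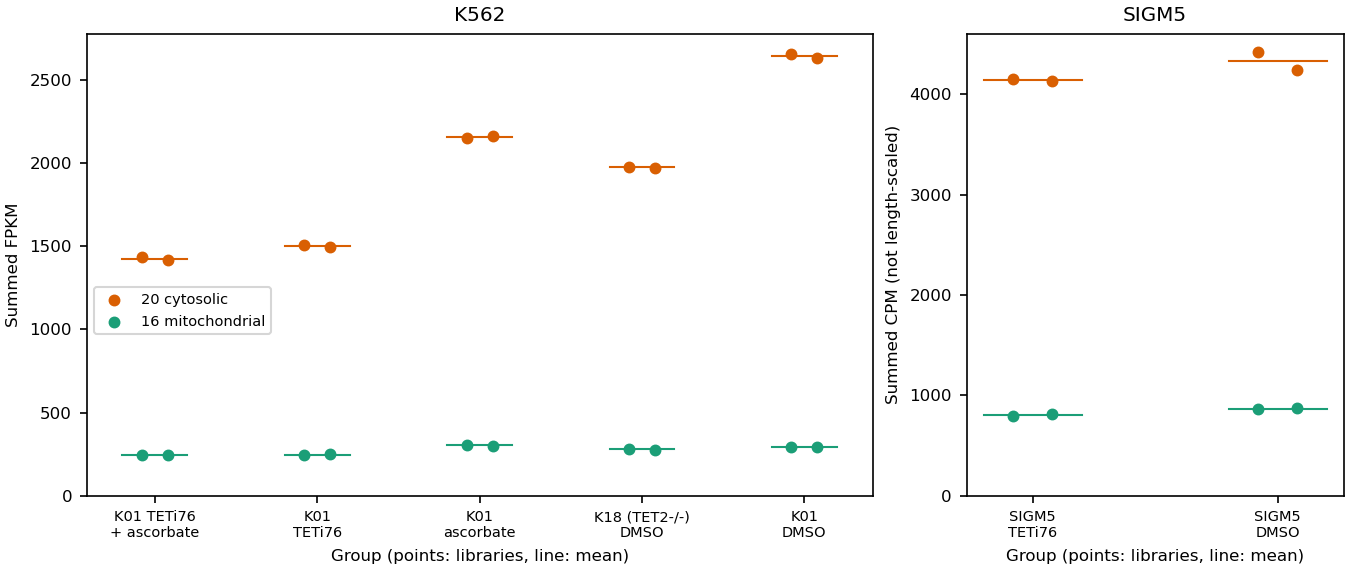
Summed levels of the 20 cytosolic (orange) and 16 mitochondrial (green) synthetase mRNAs in each library (points; lines are group means), in FPKM for K562 and in CPM for SIGM5, where VARS adds 0. In K562 the cytosolic sum is 1416 to 1509 in both TETi76 groups and 1971 to 2165.8 in K18 and under ascorbate. In K01 DMSO it is 2635 to 2658. In SIGM5 both TETi76 libraries lie below both DMSO libraries for each class. The cytosolic sums there are 4146 and 4135 against 4420 and 4237 CPM, and the mitochondrial sums 794 and 810 against 861 and 871 CPM.

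K18 was compared with K01 under DMSO, again with the same K01 DMSO libraries. TET2 mRNA was 3.31 and 2.95 FPKM in the libraries labelled K18, against 1.99 and 2.399 FPKM in K01 (log2 change 0.37, SE 0.22, limma adjusted p = 0.314). The labels do not say which part of TET2 is altered in K18, so its mRNA level does not check the genotype, and a knockout allele can still be transcribed. In the libraries labelled K18, 14 of 20 cytosolic synthetases were lower and 0 higher, with a median log2 change of -0.39 against 0 for all genes, where 8.21% of all genes, or 1029, were called lower. That number was 424 to 522 when any 1 of the 4 libraries was left out. Of 16 mitochondrial members 1 was lower, TARS2, with a median of 0.01 for the 16.

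CARS had 50.9 and 53.1 FPKM in K18, against 85.0 and 87.9 FPKM in K01 (log2 change -0.72, SE 0.07, limma adjusted p = 0.000271). SARS had 160.2 and 160.5 FPKM in K18, against 263 and 257 FPKM in K01 (log2 change -0.69, SE 0.05, limma adjusted p = 5.8e-05). GARS had 142 and 138 FPKM in K18, against 218 and 222 FPKM in K01, and WARS had 131 and 137 FPKM in K18, against 198 and 195 FPKM in K01. None of the 4 genes overlapped between the clones, and the log2 changes of GARS and WARS were -0.64 and -0.55. These genes, like those that follow, were described because they were called, so the lack of overlap is not separate evidence. The share of all genes without overlap between the clones is not given. AARS had 148 and 145 FPKM in K18, against 210.3 and 199.5 FPKM in K01 (log2 change -0.48).

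NARS had 93.7 and 89.7 FPKM in K18, against 127.4 and 127.5 FPKM in K01 (log2 change -0.47). TARS had 152 and 138 FPKM in K18, against 201 and 199 FPKM in K01 (log2 change -0.46). KARS had 125 and 122 FPKM in K18, against 158 and 164 FPKM in K01 (log2 change -0.38). In these genes too the clones did not overlap. MARS (-0.45), YARS (-0.42), DARS (-0.41), IARS (-0.33), EPRS (-0.31) and VARS (-0.28) were also lower. MARS had 117 and 112 FPKM in K18, against 153 and 161 FPKM in K01, and YARS had 113 and 116 FPKM in K18, against 158 and 151 FPKM in K01. IARS had 99.0 and 101.9 FPKM in K18, against 126 and 127 FPKM in K01, and EPRS had 106.9 and 103.3 FPKM in K18, against 131.4 and 129.7 FPKM in K01. VARS had 110.01 and 123 FPKM in K18, against 145 and 138 FPKM in K01. The clones were apart in all 5 genes, least so in VARS. DARS, which did not pass under TETi76, had 44.8 and 43.0 FPKM in K18, against 55.6 and 61.4 FPKM in K01. Its call was kept in 4 of 12 alternatives and lost with any 1 of the 4 libraries left out (highest limma adjusted p = 0.205). The call of VARS was also kept in 4 of 12, and was lost without replicate 1 of K18 (limma adjusted p = 0.226) and without either K01 DMSO library. The calls of EPRS and IARS were kept in 8 of 12 and those of KARS and MARS in 10 of 12, while the other 8 cytosolic calls were kept in 12 of 12.

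QARS, which fell under TETi76, had 92.4 and 91.7 FPKM in K18, against 92.8 and 95.6 FPKM in K01 (log2 change -0.03, SE 0.08, limma adjusted p = 0.821). TARS2 had 24.2 and 20.5 FPKM in K18, against 30.003 and 33.8 FPKM in K01 (log2 change -0.50, SE 0.12, limma adjusted p = 0.0198). The TARS2 groups did not overlap, but its call was lost without replicate 2 of K18 (limma adjusted p = 0.152) and without replicate 2 of K01 DMSO (0.135). The cytosolic count was 8 without replicate 2 of K01 DMSO and 9 without replicate 2 of K18. Summed levels were 1978 and 1971 FPKM in K18, against 2658 and 2635 FPKM in K01 for the cytosolic members, and 283 and 274 FPKM in K18, against 292 and 295 FPKM in K01 for the mitochondrial ones.

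Members of neighbouring lists were also lower in K18, where 8.21% of all genes were called lower. Of the 12541 genes tested, 859 were called higher. Of the ATF4 targets 7 of 15 were lower, GDF15 (-1.35), CHAC1 (-0.66) and ATF3 (-0.64) most. Of the amino acid synthesis genes 10 of 16 were lower, PSAT1 (-0.92), GOT1 (-0.56) and MTHFD2 (-0.52) most, and of the transporters 7 of 11, SLC6A9 (-1.08), SLC1A4 (-0.69) and SLC7A1 (-0.66) most. Of the cytosolic translation factors 5 of 13 were lower, with EIF2S1, the alpha subunit of eIF2, lowest (-0.86). Of the erythroid markers 4 of 10 were lower, HBE1 most (-1.89), with summed levels of 4673 and 4471 FPKM in K18, against 8374 and 9648 FPKM in K01. Of 7 tested myelomonocytic markers 2 were higher, CD33 (1.05) and SPI1 (0.78), with summed levels of 58.7 and 68.6 FPKM in K18, against 54.2 and 46.9 FPKM in K01. Of 3 tested lymphoid, stromal and epithelial markers 1 was lower, EPCAM (-0.98), with summed levels of that list of 24.8 and 25.8 FPKM in K18, against 44.0 and 52.1 FPKM in K01. Their part in the synthetase differences was not tested.

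In SIGM5, TETi76 at the same dose and time changed no synthetase mRNA by the test. Of 19 cytosolic members 0 were called in edgeR (2 at an unadjusted p under 0.05, AARS and QARS) and 0 in DESeq2, and of 16 mitochondrial members 0 in edgeR (3 at an unadjusted p under 0.05, TARS2, SARS2 and PARS2) and 0 in DESeq2. The share of all genes at that unadjusted cut is not given. Among all genes 4.13% were called after adjustment, or 468 genes. That number was 110 without replicate 1 of TETi76, 183 without replicate 2 of TETi76, 866 without replicate 1 of DMSO and 1206 without replicate 2 of DMSO. The median log2 change was -0.05 for the cytosolic and -0.12 for the mitochondrial members, against 0.00 for all 11340 genes (0.000821). Of the 19 cytosolic members 13 had a log2 change below 0, and of the 16 mitochondrial members 14 did. The cytosolic sum was 4146 and 4135 CPM under TETi76, against 4420 and 4237 CPM under DMSO, and the mitochondrial sum was 794 and 810 CPM under TETi76, against 861 and 871 CPM under DMSO.

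CARS had 40.0 and 45.5 CPM under TETi76, against 51.7 and 46.7 CPM under DMSO (log2 change -0.20, 95% interval -0.46 to 0.05). WARS had 227.8 and 228.8 CPM under TETi76, against 233 and 216 CPM under DMSO (log2 change 0.03, 95% interval -0.19 to 0.24). The WARS libraries under TETi76 lay between those under DMSO. GARS had 164 and 160.1 CPM under TETi76, against 170.1 and 154 CPM under DMSO (log2 change -0.000437, 95% interval -0.22 to 0.22). AARS had 285 and 305 CPM under TETi76, against 380 and 325 CPM under DMSO (log2 change -0.26, edgeR adjusted p = 0.202).

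KARS had 225 and 215 CPM under TETi76, against 243 and 229 CPM under DMSO (log2 change -0.10). TARS2 had 77.3 and 87.8 CPM under TETi76, against 100.2 and 101 CPM under DMSO (log2 change -0.29, edgeR adjusted p = 0.173). Both TETi76 libraries of KARS and of TARS2 lay below both DMSO libraries; TARS2 was among the 3 mitochondrial members with an unadjusted edgeR p under 0.05 and did not pass after adjustment. Without replicate 1 of SIGM5 DMSO edgeR called DARS, and without replicate 2 of DMSO it called AARS, QARS and PARS2, all lower. VARS, the valyl enzyme, had 0 counts in all 4 SIGM5 libraries, under a limit of 3 counts a library, and VARS2 had 15 to 24 counts a library. With 0.669 and 0.652 CPM under TETi76, against 1.07 and 1.12 CPM under DMSO, VARS2 had the largest SIGM5 log2 change of any tested member and a wide interval (-0.72, 95% interval -1.66 to 0.21, edgeR adjusted p = 0.456).

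Among all SIGM5 genes 4.13% were called, in either direction. Around the synthetases in SIGM5, 1 of 16 amino acid synthesis genes fell, ASNS (log2 change -0.49), and 1 of 11 transporters rose, SLC7A5 (0.50). Of 14 ATF4 targets 0 passed in edgeR (6 at an unadjusted p under 0.05). Of 11 interferon-response genes 6 fell, IFIT1 (-2.86), IFIT3 (-1.96) and MX1 (-1.77) most, while the log2 change of WARS was 0.03. In edgeR 0 of the scaffold, other aminoacylation, translation factor and eIF2 kinase genes passed, with 3 of 13 cytosolic translation factors at an unadjusted p under 0.05. Of 10 myelomonocytic markers 3 rose and 3 fell, with summed levels of 19063 and 19703 CPM under TETi76, against 22280 and 22372 CPM under DMSO. Their part in the synthetase values was not tested.

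**Figure D5:**
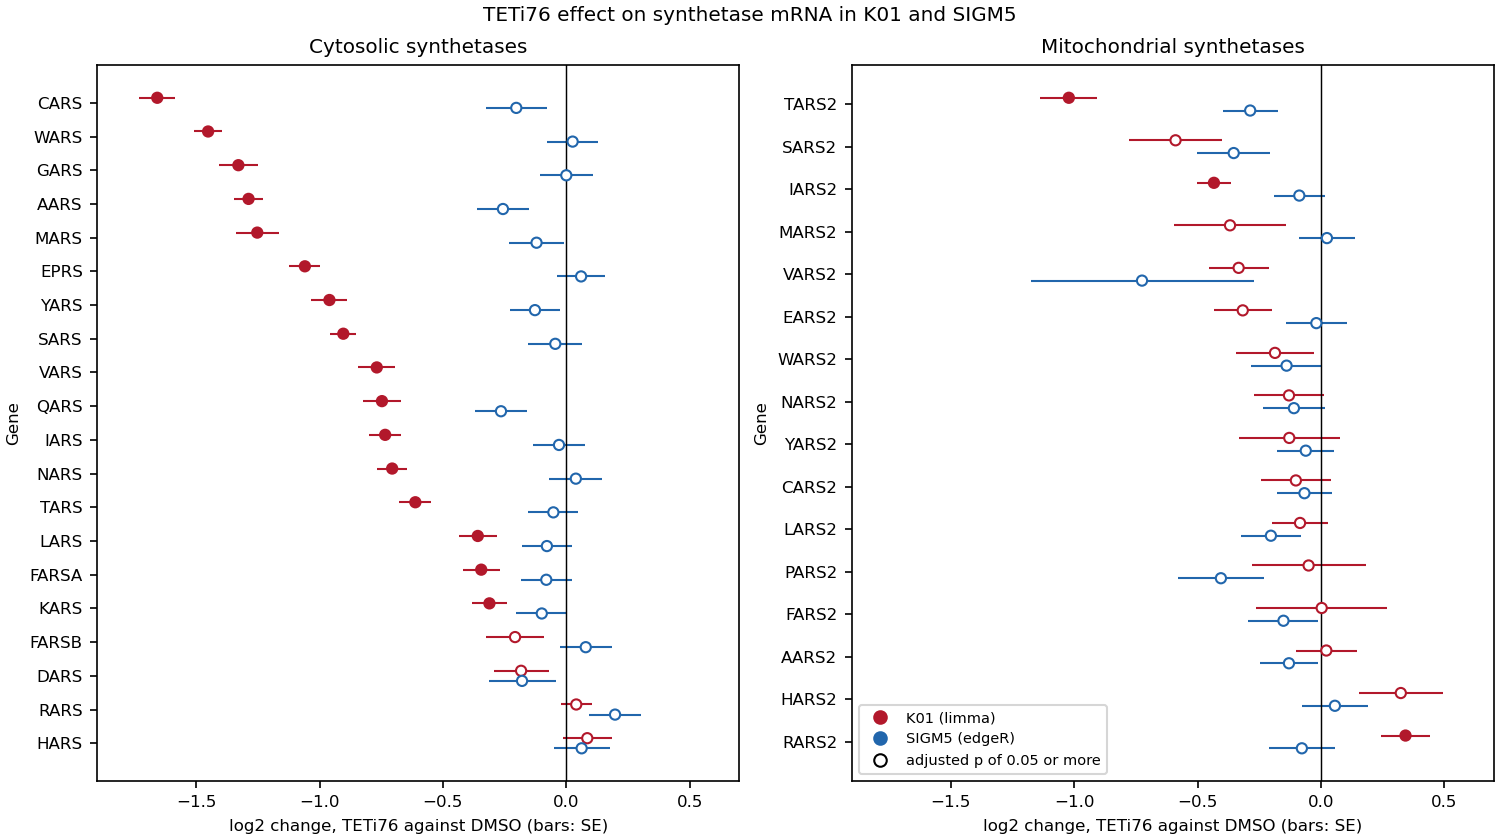
Log2 change with its SE for TETi76 against DMSO in K01 (red, limma on log2(FPKM + 1)) and in SIGM5 (blue, edgeR), with filled points for an adjusted p under 0.05; VARS has no SIGM5 value. Cytosolic points in K01 reach -1.66 while those in SIGM5 lie between -0.27 and 0.20, and mitochondrial points of both lines lie within 1.02 of 0.

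The difference between the lines was tested directly as the TETi76 change in K01 minus that in SIGM5, over 9743 genes tested in both. It was below 0 for 12 of 19 cytosolic members and for 1 of 16 mitochondrial members by Benjamini-Hochberg adjusted p, where 7.12% of all genes were called in that direction. The median difference was -0.70 for the cytosolic members and -0.03 for the mitochondrial ones, against -0.01 for all genes. WARS (-1.48, SE 0.12), CARS (-1.45, SE 0.14), GARS (-1.33, SE 0.13) and MARS (-1.13, SE 0.14) differed most. TARS2 was the mitochondrial member (-0.73, SE 0.16, adjusted p = 0.00294 from the limma and edgeR fits), and its call was lost without replicate 2 of SIGM5 TETi76 (adjusted p = 0.0537 from the same fits). QARS (-0.48) lost its call without either SIGM5 TETi76 library, and without either SIGM5 DMSO library 2 mitochondrial members were called. The lines differ in more than identity here, since one table holds FPKM and the other counts, and the line and the processing cannot be told apart.

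In SIGM5 the cytosolic over mitochondrial ratio, here of CPM, was lower under TETi76 in 4 of 16 pairs, with a median log2 difference of 0.10. For CARS over CARS2 it was 0.433 and 0.489 under TETi76, against 0.507 and 0.506 under DMSO, and for WARS over WARS2 it was 15.6 and 15.4 under TETi76, against 14.7 and 13.1 under DMSO. In K18 the ratio was below that of K01 in 16 of 17 pairs, with a median log2 difference of -0.31, and under ascorbate in K01 it was below DMSO in 16 of 17 pairs, with a median of -0.37. These last values share the K01 DMSO libraries with each other and with the TETi76 values. Under ascorbate 14 of 20 cytosolic members had a log2 change below 0, so a lower ratio was not always a cytosolic decrease. FARSB had 53.2 and 54.1 FPKM under ascorbate, against 46.0 and 42.4 FPKM under DMSO, yet FARSB over FARS2 was lower (-0.58). FARS2 had 14.8 and 13.8 FPKM under ascorbate, against 10.8 and 5.75 FPKM under DMSO. No share over other gene pairs was counted. With TETi76 and ascorbate against ascorbate, 14 of 17 pairs were lower, with a median of -0.24, and SARS over SARS2, TARS over TARS2 and NARS over NARS2 were higher.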

How the data were processed

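Per the submitters' processing notes, reads were aligned to hg19 with STAR, and edgeR 3.24.3 and limma 3.38.3 were used; the quantifier is not given in the sources used here. The deposited SIGM5 values are raw read counts per gene. The deposited K562 values are FPKM, which cannot be told apart from RPKM by their values; the design had named a fit for FPKM and one for counts, and the FPKM fit was used. Single-sample columns equalled the table columns in 14 of 14 libraries, and 0 columns were unused. Genes are named by symbol, and the strand setting is not stated, so antisense reads cannot be separated.

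For SIGM5, edgeR 4.0.16 was run in its quasi-likelihood form with TMM scaling on the 11340 genes kept by filterByExpr. For K562, limma 3.58.1 with a robust, trended variance was fitted once to log2(FPKM + 1) of the 10 libraries, keeping the 12541 genes that reached an FPKM of 1 in 2 libraries or more. The 26 K562 entries with a number as a name (at most 0.0657% of the FPKM sum) and 2242 short-RNA entries, which took 35.4% to 40.0% of it, were left out. The difference between lines used Satterthwaite degrees of freedom. All p-values are two-sided, adjusted by Benjamini-Hochberg over every gene tested, and called at 0.05. Counts at an unadjusted p under 0.05 stand without the share of all genes at that cut. DESeq2 1.42.0, other scalings, pseudocounts of 0.1 and 0.5, other filters, the replicate block and leaving out each library were alternatives. Of low FPKM values, 84.8% of 1927 were whole multiples of 1 read within 0.02; the depth derived from them is approximate. Intervals and floors cover counting error or library spread only.

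All 36 members are named; per-library values are given for the members with the largest TETi76 change in K01, those called in K18, KARS, GARS and WARS, with others chosen after their values were seen (RARS2, RARS, FARSB and QARS among them). Overlap between groups is described for members chosen in this way, and the share of all genes without overlap is not given. Context lists give up to 3 called members with the largest change, plus those that moved the other way and a few (ATF4 itself, for instance) named after their values were seen. Members, lists and motifs were chosen with earlier results of these data known. Promoter windows are RefSeq's on GRCh38.p14, matched by symbol or by the symbol followed by 1 (AARS as AARS1), and share no coordinates with the hg19 tables.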

Additional observations from a re-analysis of the deposited data

Results flagged for a closer look

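The TETi76 change differed between K01 and SIGM5 by a test of the difference itself (limma and edgeR fits, Benjamini-Hochberg adjusted p) for 13 members. The log2 difference, K01 minus SIGM5, was -1.48 for WARS, -1.45 for CARS, -1.33 for GARS, -1.13 for MARS, -1.12 for EPRS, -1.03 for AARS, -0.86 for SARS, -0.83 for YARS, -0.74 for NARS, -0.73 for TARS2, -0.70 for IARS, -0.56 for TARS and -0.48 for QARS. In SIGM5 each of these genes had a change whose adjusted p was above the threshold.

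The TETi76 change also differed with and without ascorbate in K01 by the interaction term in limma. The log2 interaction was 0.63 for CARS, 0.63 for WARS, 0.49 for AARS and 0.42 for SARS, positive in each. The decrease under TETi76 was thus smaller where ascorbate was present in both groups. Each gene had also fallen with ascorbate alone. WARS reached like levels with TETi76, a mean of 67.1 FPKM with ascorbate and 71.1 without. The calls of CARS, AARS and SARS were near the threshold and were lost in most alternatives.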

How the results depend on the processing

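Of 1012 values of called members under the alternatives, 858 kept direction and call, 154 lost the call and 0 reversed; of 2494 values of uncalled members 132 changed sign, called in neither, and 16 passed. Ascorbate against DMSO called 0 cytosolic members with only its groups in the fit and 3 with the replicate block, and 0 to 1 with 1 library left out. The interaction called 1 without a filter, 1 with only its groups and 1 with the replicate block, and 0 to 1 with 1 library left out. TETi76 with ascorbate against ascorbate called 4 mitochondrial members with only its groups, and 3 to 5 with 1 library left out. With 1 library left out, K18 against K01 called 8 to 11 cytosolic and 0 to 1 mitochondrial members, TETi76 in SIGM5 0 to 2 and 0 to 1, and the difference between lines 0 to 2 mitochondrial members. TETi76 against DMSO in K01 called 14 to 15 cytosolic and 2 to 3 mitochondrial members. The lone library left in a group is assumed to vary like the others.

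The replicate numbers are not stated to pair the samples, and same-numbered K562 libraries deviated together by r of -0.02 to 0.05; the block called 16 cytosolic members for TETi76 in K01 and 12 for K18. In SIGM5 r was -0.16, and a crossed pairing, added after seeing the data, called 1 cytosolic and 1 mitochondrial member and 1291 genes, against 468.

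For TETi76 against DMSO in K01 the 1204 higher and 1718 lower calls over all genes became 1422 and 1386 under quantile normalization, with 14 cytosolic members lower, and 1411 and 1424 when rescaled without short RNA. Quantile normalization split all interaction calls into 38 higher and 27 lower, against 35 and 44. That rescaling, also added later, moved the calls to 1114 and 688 for K18, against 859 and 1029, to 1992 and 1778 for TETi76 with ascorbate against ascorbate, against 1611 and 2234, and to 36 and 28 for the interaction. Without a filter SIGM5 had 738 calls, against 468, and the interaction 42, against 79. With only its groups the interaction had 26, and ascorbate and TETi76 with ascorbate against TETi76 had 0 calls each, against 60 and 92. With the block the interaction had 46. With 1 library left out, calls over all genes ran from 0 to 6 for ascorbate, from 0 to 71 for the interaction, from 2 to 62 for TETi76 with ascorbate against TETi76, and from 522 to 1483, against 1172, for the difference between lines. The cause was not tested.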

Other observations

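VARS stood at 0 counts in SIGM5 while it had 145 and 138 FPKM in K01 DMSO. Of its 20 nearest neighbours in the RefSeq gene order that the SIGM5 table holds, 14 also had 0 counts in all 4 SIGM5 libraries. Of the 10 neighbours with over 10 FPKM in K01 DMSO, 4 had 0 counts: ABHD16A, HSPA1A, LSM2 and MSH5. Around VARS2, 9 of 20 neighbours had 0 counts, and of the 11 with over 10 FPKM in K01 DMSO 2 did, DHX16 and NRM. Of all 5679 genes with over 10 FPKM in K01 DMSO, 101 (1.78%) had 0 counts in SIGM5. That share is the match for the 4 of 10 and the 2 of 11 only. For the 14 of 20 and the 9 of 20 no share over all genes is given. Whether these zeros reflect the counting or the cells was not tested.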
